A study of Mus musculus with 16 samples.

Results

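The control of G1 entry and quiescence was followed through 10 genes, listed by symbol, over all 16 libraries of the series. They are the D-type cyclins Ccnd1, Ccnd2 and Ccnd3, the kinases Cdk4 and Cdk6, the CIP/KIP inhibitors Cdkn1b and Cdkn1c, and the INK4 inhibitors Cdkn2a, Cdkn2b and Cdkn2c. All 10 had a row among the 32989 genes of the count table, and 9 of them were among the 19049 genes that reached the required mean count of 5 and were tested. Cdkn2a fell below that minimum and is given by its counts.

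The RNA came from hair follicle stem cell (HFSC) organoids, grown from skin keratinocytes of 4 C57BL/6J mice for 2 weeks in a mixed culture that holds stem cells together with their progeny. Organoids were left untreated or received N1-acetylspermidine (N1-AcSpd), an acetylated form of the polyamine spermidine, for 72 h, and were then sorted by flow cytometry on integrin α6 and CD34 to give progenitors (α6+/CD34−) and stem cells (α6+/CD34+, here HFSCs). Each mouse gave 1 library to each of the 4 groups, so that n = 4 throughout and the same animals stand behind all groups. The cells of all groups were cultured outside the skin, the titles call the untreated libraries WT, and the labels give no age for the mice and no other allele or agent. By label the groups differ in sort gate and in N1-AcSpd.

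D-type cyclins bind CDK4 or CDK6, and the complexes phosphorylate the retinoblastoma protein RB1 and its relatives, which releases E2F factors to switch on genes of DNA replication. INK4 proteins bind the kinases themselves and block them, whereas CIP/KIP proteins bind cyclin and kinase together and act mainly on CDK2 complexes. Hair follicle stem cells spend most of the hair cycle in quiescence in the skin, a state in which these inhibitors have been studied, while their progeny in the outer root sheath divide when a new hair grows.

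Of the members, 7 matched an entry in the RefSeq promoter table (build GRCm38.p6), namely Ccnd3, Cdk4, Cdk6, Cdkn1b, Cdkn2a, Cdkn2b and Cdkn2c, and Ccnd1, Ccnd2 and Cdkn1c had none. The 250 bases before the start are printed for 4 members, those with an entry whose called differences between untreated HFSCs and progenitors were largest on the counts as deposited, Cdkn1b and Cdkn2c (higher in HFSCs) and Cdkn2b and Cdk6 (lower), each 5′ to 3′ on the strand of its gene. Capitals mark matches on either strand to a set of short motifs. The GC box was searched as GGGCGG, and the TATA box as the letters TATAAA. The E2F site was searched as TTTGGCGC or as TTTCGCGC, and the FOXO site in the form GTAAACA. For SMAD proteins the letters were CAGACA, and for AP-1 the site was taken to be TGACTCA.
Cdkn1b: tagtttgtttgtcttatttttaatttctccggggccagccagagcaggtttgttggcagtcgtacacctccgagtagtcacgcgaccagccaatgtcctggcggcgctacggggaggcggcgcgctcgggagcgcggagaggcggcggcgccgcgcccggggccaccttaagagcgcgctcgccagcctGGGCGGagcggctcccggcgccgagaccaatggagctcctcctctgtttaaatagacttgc
Cdkn2c: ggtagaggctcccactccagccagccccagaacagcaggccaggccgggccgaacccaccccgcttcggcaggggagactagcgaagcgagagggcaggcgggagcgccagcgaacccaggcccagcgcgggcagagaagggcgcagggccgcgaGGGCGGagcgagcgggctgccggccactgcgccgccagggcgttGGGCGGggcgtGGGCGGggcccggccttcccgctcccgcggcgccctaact
Cdkn2b: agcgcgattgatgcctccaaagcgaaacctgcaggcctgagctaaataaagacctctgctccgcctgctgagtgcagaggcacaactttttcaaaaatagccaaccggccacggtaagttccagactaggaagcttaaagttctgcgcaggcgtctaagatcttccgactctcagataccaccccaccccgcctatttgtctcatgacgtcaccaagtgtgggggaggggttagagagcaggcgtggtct
Cdk6: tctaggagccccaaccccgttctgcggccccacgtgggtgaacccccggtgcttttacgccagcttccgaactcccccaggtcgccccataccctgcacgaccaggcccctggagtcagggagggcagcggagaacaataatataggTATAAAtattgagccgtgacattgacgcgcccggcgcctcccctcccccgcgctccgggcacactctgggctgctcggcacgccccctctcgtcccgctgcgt
Cdkn2c has 2 entries, of which the one farther upstream is printed. That Cdkn2c window (chr4:109666757-109667006, minus strand) held 3 GC boxes, while the other (chr4:109665373-109665622) held none and 1 match to the SMAD letters, and the Cdkn1b window (chr6:134920151-134920400, plus strand) held 1. The Cdk6 window (chr5:3343643-3343892, plus strand) held 1 match to the TATA letters, at position -103 from the start. The Cdkn2b window (chr4:89311033-89311282, minus strand) held none of the letters searched. The Cdk6 window and both Cdkn2c windows lie inside the gene spans given below, so their starts are not the outermost of the gene. Among all 32851 promoter windows of this length, 32.7% held a GC box, 12.4% a TATA box, 17.1% the SMAD letters, 4.46% the AP-1 letters, 3.17% the FOXO letters and 0.654% the E2F letters. By base composition, G and C made up 77.2% of the printed and 42.8% of the other Cdkn2c window, 66% of Cdk6, 64.4% of Cdkn1b and 53.6% of Cdkn2b, against a median of 52.4% over all windows. These are matches of letters, which say nothing on the binding of a factor in these cells.

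Library totals ran from 15480075 to 29074855 unique molecular identifiers (UMIs, which mark single RNA molecules). They were 16179323 to 24451336 in untreated progenitors and 25202264 to 29074855 in N1-AcSpd progenitors, so every treated progenitor library was the deeper. Totals were 16928210 to 18329702 in untreated HFSCs and 15480075 to 26233887 in N1-AcSpd HFSCs. Depth thus differed between groups, and its part in the member values was not tested. Values below are UMI counts brought to a common library size (counts per 1000000, CPM) after scaling of the totals by the TMM method. The gate was visible in its own transcript, since Cd34 was at 2.87 to 3.65 CPM in the CD34− fraction but at 43.4 to 64.0 CPM in the CD34+ fraction. The basal keratinocyte genes Krt14 (4598 CPM or more) and Krt5 (909.5 CPM or more) were high in every library. Of the lists for other cells, the melanocyte genes Tyrp1, Tyr, Dct and Mlana stayed at or under 0.867 CPM, the fibroblast genes Col1a1, Col3a1, Dcn and Pdgfra at or under 0.260 CPM, and the immune genes Cd3e, Cd74 and Lyz2 at or under 0.171 CPM. The whole lists summed to 28.0 to 36.1 CPM for melanocytes (6 of 7 genes in the table, mostly Mitf and Pmel, of which Pmel overlaps Cdk2), 0.704 to 12.0 CPM for fibroblasts (8 of 8) and 6.91 to 10.7 CPM for immune cells (6 of 7, mostly Csf1r and Itgam). The immune gene Ptprc was uneven, at up to 2.03 CPM in untreated progenitors, 1.92 CPM in untreated HFSCs and 1.07 CPM in N1-AcSpd progenitors. In N1-AcSpd HFSCs Ptprc stayed at or under 0.0587 CPM. Of 5 endothelial genes 2 were in the table, where Kdr stayed at or under 0.360 CPM, while Pecam1 was listed at 1686 to 2053 CPM in all libraries, and no other gene of the table overlapped it.

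Of the 9 tested members, 8 differed between HFSCs and progenitors without N1-AcSpd (edgeR, adjusted p under 0.05), 3 higher and 5 lower in α6+/CD34+ HFSCs. Among all tested genes 32.1% were called in this comparison, 16.1% higher and 16.1% lower. With N1-AcSpd the same 8 members were called in the same directions, where the share among all genes was 33.3% (16.5% higher, 16.8% lower). All 3 D cyclins, Cdk6 and Cdkn2b fell in HFSCs, while Cdk4, Cdkn1b and Cdkn2c rose. For these 8 members the ranges of the 4 HFSC and 4 progenitor libraries did not overlap in either condition, which held for 32.2% of all genes in untreated and 34.4% in N1-AcSpd cells. Scaling by library totals shifted the median of all genes to 0.14 and 0.11 on the log2 scale, from 0.022 and -0.0068, and raised the share of higher genes among those called from 49.96% to 73.4% in untreated and from 49.6% to 71.6% in N1-AcSpd cells. Under that scaling the members split into 3 higher and 4 lower in untreated cells, Ccnd2 being lost, and 3 higher and 5 lower with N1-AcSpd. In sorted bulk RNA, fewer expressing cells and less RNA per cell cannot be told apart. The untreated and the N1-AcSpd comparison use separate libraries of the same mice.

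**Figure D1:**
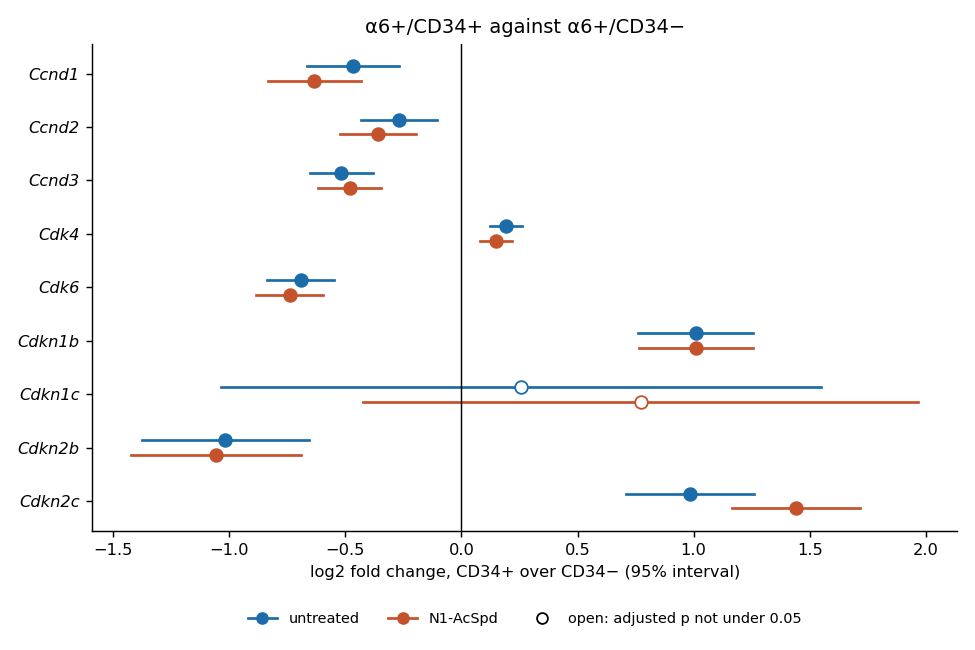
Log2 fold change of α6+/CD34+ HFSCs over α6+/CD34− progenitors (horizontal axis) for the 9 tested members, in untreated (blue) and N1-AcSpd cells (orange), with 95% intervals of the edgeR fit. Filled points have an adjusted p under 0.05. Cdkn1b and Cdkn2c lie to the right and Cdkn2b to the left at about 1 or more, and only Cdkn1c crosses 0.

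Ccnd1 (ENSMUSG00000070348, chr7:144929931-144939925 on GRCm38, minus strand), the D cyclin most directly induced by growth factors, was lower in HFSCs than in progenitors. Untreated progenitors of mice 1 to 4 held 58.9, 71.2, 60.3 and 62.1 CPM, and untreated HFSCs held 42.5, 49.0, 45.8 and 45.5 CPM. N1-AcSpd progenitors held 55.4, 73.4, 62.8 and 76.5 CPM, and N1-AcSpd HFSCs held 40.9, 46.5, 42.1 and 43.4 CPM. Every progenitor library lay above every HFSC library, and the widest spread was among N1-AcSpd progenitors (SD 9.69 CPM). The log2 fold change was -0.47 (SE 0.092, edgeR adjusted p 0.00158) in untreated and -0.63 (SE 0.092, adjusted p 0.000129) in N1-AcSpd cells, a level 1.38-fold and 1.55-fold lower in HFSCs. Ccnd1 is in the list of cell division genes that the study drew from these same libraries, so its presence there is not independent evidence. That list holds genes that passed the study's p and fold change cutoffs only with N1-AcSpd. Here no fold change cutoff was used, and Ccnd1 was called in both conditions. The change of its cell type difference with N1-AcSpd was not called (-0.17, edgeR unadjusted p 0.222). In order of mean level the groups ran from N1-AcSpd progenitors (67.0 CPM) and untreated progenitors (63.1 CPM) to untreated HFSCs (45.7 CPM) and N1-AcSpd HFSCs (43.2 CPM), and groups of the same cell type overlapped.

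Ccnd2 (ENSMUSG00000000184, chr6:127125162-127152193, minus strand), a D cyclin known from the growth of granulosa and beta cells, showed the smallest of the D cyclin differences. Untreated progenitors held 284.9, 291.6, 238.7 and 238.0 CPM, and untreated HFSCs held 224.7, 223.7, 215.8 and 210.2 CPM. N1-AcSpd progenitors held 217.3, 245.6, 215.8 and 244.9 CPM, and N1-AcSpd HFSCs held 174.7, 194.3, 163.3 and 187.8 CPM. Within a condition the groups did not overlap, but N1-AcSpd progenitors and untreated HFSCs shared part of their range. Ccnd2 was lower in HFSCs, at -0.27 on the log2 scale without N1-AcSpd (SE 0.076, edgeR adjusted p 0.0154) and -0.36 with it (SE 0.077, adjusted p 0.00226). The untreated call was lost with library totals in place of TMM (-0.15, edgeR adjusted p 0.152), without the untreated CD34− library of mouse 2 (-0.22, adjusted p 0.0510), and without mouse 1 (-0.24, 0.0928) or mouse 2 (-0.23, 0.0756) altogether.

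Ccnd3 (ENSMUSG00000034165, chr17:47505051-47599691, plus strand), the D cyclin found in the widest range of tissues, was lower in HFSCs in both conditions. Untreated progenitors held 81.7, 81.6, 86.1 and 92.2 CPM and untreated HFSCs 58.3, 62.5, 63.2 and 54.8 CPM. With N1-AcSpd the progenitors held 90.4, 92.1, 91.3 and 99.5 CPM and the HFSCs 60.7, 67.2, 73.1 and 66.5 CPM. No HFSC library reached a progenitor library. In HFSCs the log2 fold change was -0.52 (SE 0.063, edgeR adjusted p 3.17e-05) and -0.48 (SE 0.063, adjusted p 5.03e-05), and the order of groups was N1-AcSpd progenitors (93.3 CPM), untreated progenitors (85.4 CPM), N1-AcSpd HFSCs (66.9 CPM) and untreated HFSCs (59.7 CPM), with overlap between the conditions of each cell type.

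Cdk4 (ENSMUSG00000006728, chr10:127063534-127067920, plus strand), a catalytic partner of all D cyclins, went the other way by a small amount. Untreated progenitors held 106.1, 103.0, 105.5 and 99.0 CPM and untreated HFSCs 116.5, 117.8, 120.7 and 117.7 CPM. N1-AcSpd progenitors held 107.3, 105.1, 108.0 and 111.9 CPM and N1-AcSpd HFSCs 118.9, 117.0, 117.9 and 125.4 CPM. All 8 HFSC libraries were above all 8 progenitor libraries, and libraries of a group lay close together (SD 1.79 to 3.83 CPM). Cdk4 rose in HFSCs by 0.19 on the log2 scale (SE 0.032, edgeR adjusted p 0.000426) without and 0.15 (SE 0.032, adjusted p 0.00246) with N1-AcSpd, which is 1.14-fold and 1.11-fold. The groups ran from N1-AcSpd HFSCs (119.8 CPM) and untreated HFSCs (118.2 CPM) to N1-AcSpd progenitors (108.1 CPM) and untreated progenitors (103.4 CPM), with overlap between the conditions of a cell type.

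Cdk6 (ENSMUSG00000040274, chr5:3341485-3531008, plus strand), the second kinase of the D cyclins, fell in HFSCs. Untreated progenitors held 30.1, 27.4, 31.6 and 35.4 CPM and untreated HFSCs 18.1, 18.7, 19.7 and 20.6 CPM. N1-AcSpd progenitors held 28.1, 27.5, 28.6 and 30.3 CPM and N1-AcSpd HFSCs 17.6, 17.1, 17.4 and 16.4 CPM. The highest HFSC library stood below the lowest progenitor library. Relative to progenitors the log2 fold change was -0.69 (SE 0.067, edgeR adjusted p 3.86e-06) in untreated and -0.74 (SE 0.067, adjusted p 2.14e-06) in N1-AcSpd cells, or 1.62-fold and 1.67-fold lower. In order of mean level the groups ran from untreated progenitors (31.1 CPM), which overlapped N1-AcSpd progenitors (28.6 CPM), to untreated HFSCs (19.3 CPM) and N1-AcSpd HFSCs (17.1 CPM), which did not overlap each other.

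**Figure D2:**
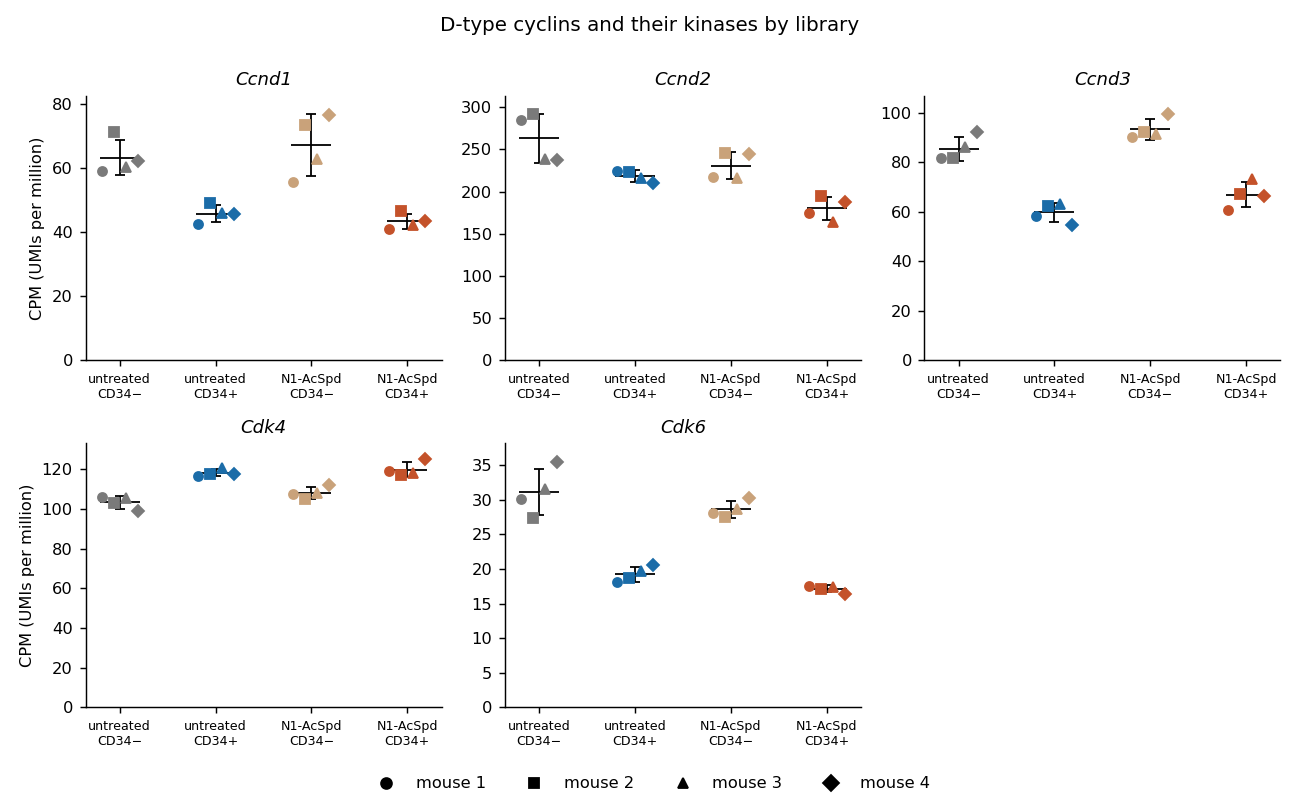
CPM (vertical axes, from 0) of the 3 D cyclins and of Cdk4 and Cdk6 in each of the 16 libraries, by group, with the mean (bar) and SD (whiskers, n = 4) and a marker shape for each mouse. Ccnd1, Ccnd3 and Cdk6 are lower and Cdk4 is higher in all HFSC libraries, and Ccnd2 is lowest in N1-AcSpd HFSCs (163.3 to 194.3 CPM).

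The opposite directions of the kinases show most plainly as a ratio within each library, which needs no scaling between libraries. The UMI count of Cdk6 divided by that of Cdk4 was 0.302 ± 0.0397 in untreated progenitors and 0.163 ± 0.00865 in untreated HFSCs (mean ± SD, n = 4). It was 0.265 ± 0.00432 in N1-AcSpd progenitors and 0.143 ± 0.00820 in N1-AcSpd HFSCs. The highest HFSC ratio was 0.175 and the lowest progenitor ratio was 0.261, so cell types did not overlap, and the conditions of a cell type differed by less than cell types did. The ratio of Ccnd2 to Ccnd1 was 4.18 ± 0.452 in untreated progenitors, 4.80 ± 0.329 in untreated HFSCs, 3.48 ± 0.311 in N1-AcSpd progenitors and 4.16 ± 0.202 in N1-AcSpd HFSCs. Within each condition its mean was higher in HFSCs, and within each cell type it was lower with N1-AcSpd, but ranges overlapped (3.83 to 4.84 against 4.57 to 5.28 in untreated cells), except those of untreated and N1-AcSpd HFSCs (4.57 to 5.28 against 3.88 to 4.33). Both ratios are of counts as deposited and rest on genes with an overlapping neighbour. With the neighbour's count subtracted, an alternative chosen after seeing the data and described in the next paragraph, Cdk6 to Cdk4 was 0.627 ± 0.0873 in untreated progenitors, 0.330 ± 0.0237 in untreated HFSCs, 0.57 ± 0.0148 in N1-AcSpd progenitors and 0.288 ± 0.0183 in N1-AcSpd HFSCs. Cell types again did not overlap (0.362 at most in HFSCs and 0.553 at least in progenitors). Ccnd2 to Ccnd1 was then 10.6 ± 0.997, 14.6 ± 1.66, 9.36 ± 0.731 and 11.8 ± 2.04 in the same order. The untreated cell types no longer overlapped for this ratio (9.19 to 11.5 against 12.7 to 16.4), whereas untreated and N1-AcSpd HFSCs now did (12.7 to 16.4 against 10.1 to 14.8). No test was run on either ratio, and as ratios of tags from different genes their size is not a ratio of proteins or of transcripts per length.

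**Figure D3:**
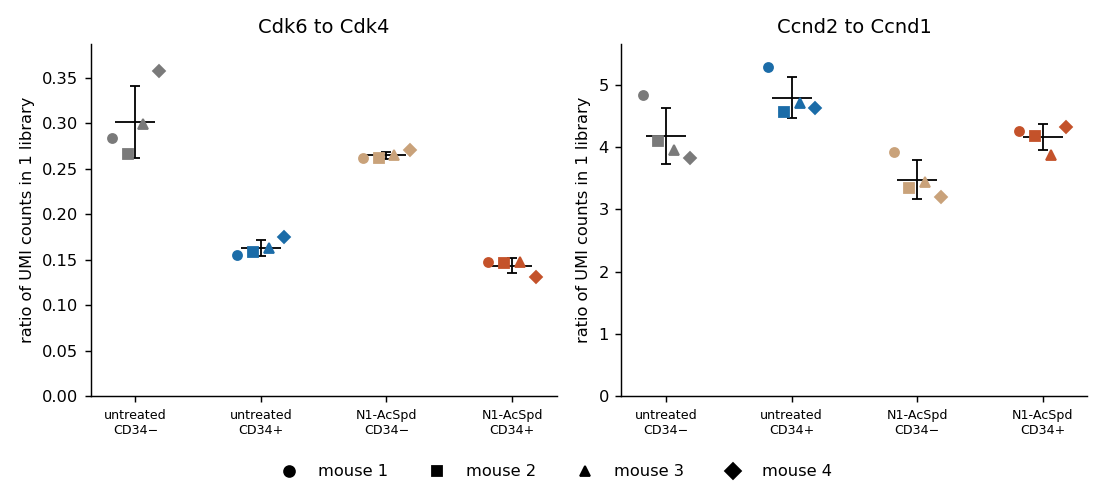
Ratio of UMI counts of Cdk6 to Cdk4 (left) and of Ccnd2 to Ccnd1 (right) in each library, by group, with the mean (bar), SD (whiskers, n = 4) and a marker shape for each mouse. The Cdk6 to Cdk4 ratio is 0.131 to 0.175 in the 8 HFSC libraries and 0.261 to 0.358 in the 8 progenitor libraries.

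Counts of 4 of these 5 genes were uncertain, because a gene on the opposite strand overlaps their 3′ end, where the tags lie, and whether counting used strand is not given in the sources used here. LTO1 over Ccnd1 held 73.4% to 82.3% of the Ccnd1 count in each library, Tspan31 over Cdk4 48.3% to 55%, Bysl over Ccnd3 36% to 59.0% and the antisense model Gm43126 over Ccnd2 32.7% to 39.7%. Raw counts of these partners ran with those of the members over the 16 libraries (Pearson r 0.997 for LTO1, 0.976 for Tspan31, 0.905 for Bysl and 0.984 for Gm43126), but raw counts also share depth. On log2(CPM + 1) the r was 0.989 for LTO1, 0.965 for Gm43126 and 0.852 for Tspan31, and 0.269 for Bysl. When the partner's count was taken from the member's count in every library, an alternative chosen after seeing the overlap, the 4 genes kept their direction and their call in both conditions. The log2 fold change then moved to -0.73 in untreated and -0.69 in N1-AcSpd cells for Ccnd1, to -0.28 and -0.36 for Ccnd2, to -0.96 and -0.93 for Ccnd3 and to 0.23 and 0.25 for Cdk4. To which gene the shared tags belong was not tested. Cdk6 overlapped only models with a mean of 4.06 counts or fewer, and Cdkn1b, Cdkn2a, Cdkn2b and Cdkn2c overlapped no gene in the table.

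Among the CIP/KIP inhibitors, Cdkn1b (p27, ENSMUSG00000003031, chr6:134920401-134925513, plus strand), a brake on CDK2 that accumulates in resting cells, was higher in HFSCs. Untreated progenitors held 4.47, 3.77, 3.77 and 4.92 CPM and untreated HFSCs 8.53, 8.22, 9.32 and 8.01 CPM. N1-AcSpd progenitors held 4.33, 3.90, 3.84 and 3.32 CPM and N1-AcSpd HFSCs 8.95, 7.51, 6.44 and 8.10 CPM. All 8 HFSC libraries were above the highest progenitor library. The log2 fold change was 1.01 (SE 0.11) in both conditions, at edgeR adjusted p-values of 1.72e-05 and 1.37e-05, which corresponds to 2.01-fold and 2.02-fold. The mean level ran from untreated HFSCs (8.52 CPM) and N1-AcSpd HFSCs (7.75 CPM) to untreated progenitors (4.23 CPM) and N1-AcSpd progenitors (3.85 CPM), and conditions overlapped within each cell type.

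Cdkn1c (p57, ENSMUSG00000037664, chr7:143458339-143461050, minus strand), an imprinted inhibitor of the same family, was near the detection limit, with 113 UMIs over 15 of the 16 libraries. Untreated progenitors held 5, 0, 6 and 6 UMIs, untreated HFSCs 6, 3, 2 and 6, N1-AcSpd progenitors 8, 8, 11 and 8, and N1-AcSpd HFSCs 12, 6, 14 and 12. The count of 0 allows up to 0.192 CPM in that library (3 counts). In CPM the means were 0.186 ± 0.127, 0.231 ± 0.112, 0.340 ± 0.0563 and 0.587 ± 0.237 in the same order. HFSCs and progenitors overlapped in both conditions, and the log2 fold change of 0.26 (95% interval -1.03 to 1.55, edgeR adjusted p 0.816) in untreated and 0.77 (-0.42 to 1.97, adjusted p 0.333) in N1-AcSpd cells did not pass the test. A difference of the size seen for Cdkn1b lies within these intervals, so the values do not exclude it.

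Of the INK4 inhibitors, Cdkn2b (p15, ENSMUSG00000073802, chr4:89306299-89311039, minus strand), known as a target of TGF-β signalling, was lower in HFSCs. Untreated progenitors held 6.45, 5.36, 5.97 and 6.18 CPM and untreated HFSCs 2.33, 3.84, 2.44 and 3.24 CPM. N1-AcSpd progenitors held 4.66, 4.72, 3.91 and 5.41 CPM and N1-AcSpd HFSCs 2.23, 2.85, 2.15 and 1.76 CPM. Within and across conditions the HFSC libraries stayed below the progenitor libraries, the closest being 3.84 and 3.91 CPM. On the log2 scale the difference was -1.02 (SE 0.17, edgeR adjusted p 0.000392) without and -1.06 (SE 0.17, adjusted p 0.000270) with N1-AcSpd, 2.02-fold and 2.08-fold lower. Its groups ran from untreated progenitors (5.99 CPM) through N1-AcSpd progenitors (4.68 CPM) and untreated HFSCs (2.96 CPM) to N1-AcSpd HFSCs (2.24 CPM).

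Cdkn2c (p18, ENSMUSG00000028551, chr4:109660876-109667189, minus strand), an INK4 inhibitor that binds CDK6 and CDK4, was higher in HFSCs. Untreated progenitors held 2.88, 2.49, 1.78 and 2.07 CPM and untreated HFSCs 4.66, 4.28, 4.55 and 4.73 CPM. N1-AcSpd progenitors held 1.90, 1.63, 1.71 and 1.97 CPM and N1-AcSpd HFSCs 5.61, 4.61, 4.66 and 4.70 CPM. All HFSC libraries were above 4.2 CPM and all progenitor libraries below 2.9 CPM. The log2 fold change was 0.98 (SE 0.13, edgeR adjusted p 5.87e-05) in untreated and 1.44 (SE 0.13, adjusted p 1.93e-06) in N1-AcSpd cells, or 1.98-fold and 2.72-fold. These values rest on 39 to 151 UMIs a library. The mean fell in the order N1-AcSpd HFSCs (4.89 CPM), untreated HFSCs (4.55 CPM), untreated progenitors (2.30 CPM) and N1-AcSpd progenitors (1.80 CPM), and again conditions overlapped within a cell type.

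Cdkn2a (ENSMUSG00000044303, chr4:89274471-89294653, minus strand), which encodes the senescence-linked proteins p16 and p19 from different first exons, was all but absent. It had 18 UMIs in all over 10 libraries, 6 in untreated progenitors, 3 in untreated HFSCs, 7 in N1-AcSpd progenitors and 2 in N1-AcSpd HFSCs. No library held more than 3, and in the 6 libraries at 0 the limit of 3 counts is 0.123 to 0.192 CPM. Tags from the 3′ end do not separate the p16 and p19 transcripts. No comparison was made at this depth.

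**Figure D4:**
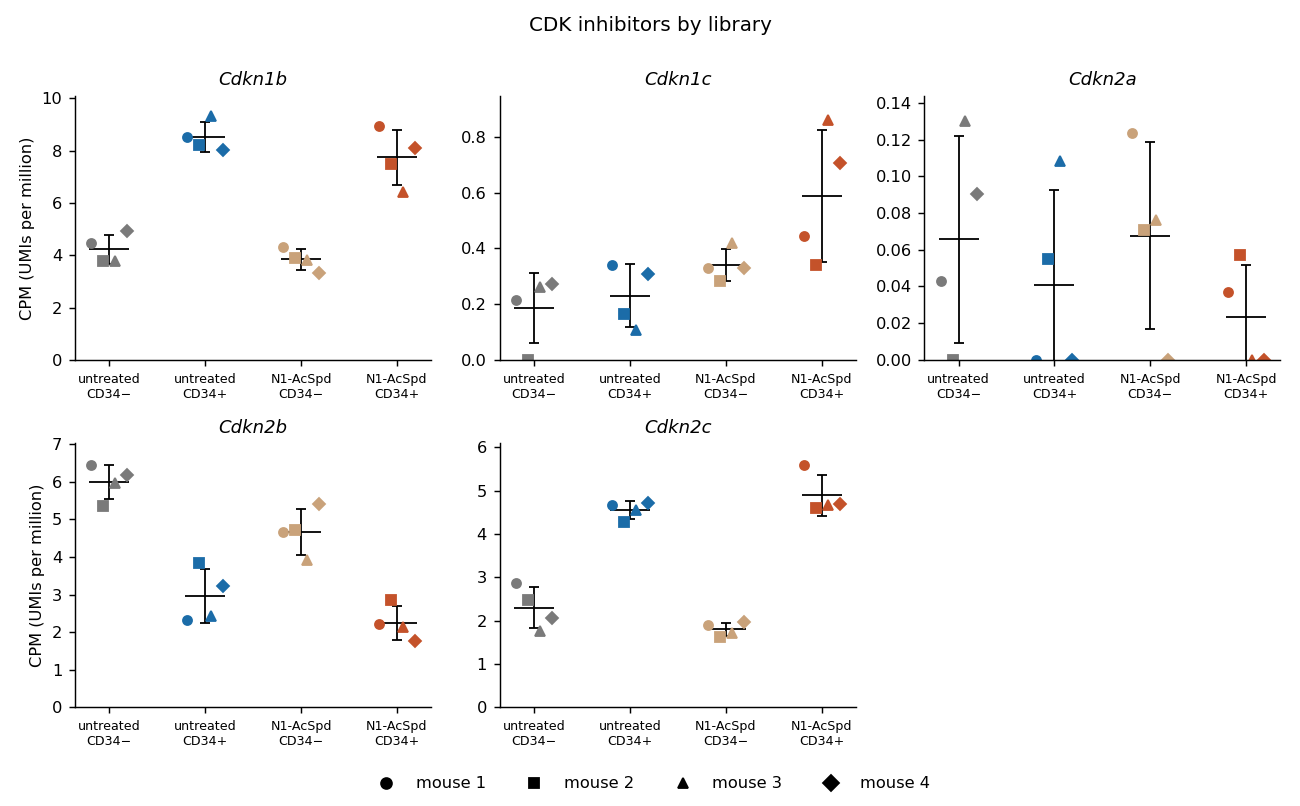
CPM (vertical axes, from 0, each on its own scale) of the 5 CDK inhibitors in each of the 16 libraries, by group, with the mean (bar) and SD (whiskers, n = 4, cut off at 0) and a marker shape for each mouse. Cdkn1b and Cdkn2c are higher and Cdkn2b is lower in all HFSC libraries, while Cdkn2a stays at or under 0.1299 CPM.

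N1-AcSpd changed no member past the threshold in either cell type. None of the 9 tested members was called by edgeR in progenitors, where 0.614% of all genes were, and none in HFSCs, where 0.325% were. At an unadjusted p under 0.05, 3 members passed in progenitors (13.6% of all genes) and 5 in HFSCs (13.2% of all genes). Those 3 were Ccnd2, Cdkn2b and Cdkn2c, and those 5 were Ccnd2, Ccnd3, Cdk6, Cdkn1c and Cdkn2b. DESeq2 called none in progenitors and 1 in HFSCs, Ccnd2, and gave no adjusted p for Cdkn1c, Cdkn2b and Cdkn2c in either cell type nor for Cdkn1b in HFSCs. The ranges of treated and untreated libraries did not overlap for 1 member in progenitors (9.05% of all genes) and 3 in HFSCs (6.81% of all genes).

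Ccnd2 had the smallest p of the members under N1-AcSpd. Its level in HFSCs was 218.6 ± 6.90 CPM without and 180.0 ± 13.9 CPM with N1-AcSpd, lower in 4 of 4 mice and without overlap. The log2 fold change was -0.28 (SE 0.077, unadjusted p 0.00269, edgeR adjusted p 0.153), and DESeq2 gave -0.27 (adjusted p 0.0209). In progenitors it was 263.3 ± 28.9 CPM without and 230.9 ± 16.6 CPM with N1-AcSpd, lower in 3 of 4 mice with overlapping ranges, at -0.19 (SE 0.076, edgeR adjusted p 0.293). The untreated HFSC libraries are shared between this comparison and the cell type comparison.

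For the other members the treatment values are given with 95% intervals of the edgeR fit. Cdk6 in HFSCs was at -0.17 (-0.31 to -0.02, unadjusted p 0.0252, adjusted p 0.308), with treated libraries at 16.4 to 17.6 CPM and untreated ones at 18.1 to 20.6 CPM. Cdkn2b was at -0.36 in progenitors (-0.71 to -0.01, edgeR adjusted p 0.359) and -0.40 in HFSCs (-0.77 to -0.03, adjusted p 0.342), lower with N1-AcSpd in 4 of 4 mice in both cell types. Ccnd3 was at 0.13 in progenitors (-0.01 to 0.26, edgeR adjusted p 0.396) and 0.16 in HFSCs (0.03 to 0.30, adjusted p 0.289), higher in 4 of 4 mice in both. Cdkn1c was at 0.81 in progenitors (-0.44 to 2.05, edgeR adjusted p 0.614) and 1.32 in HFSCs (0.07 to 2.57, adjusted p 0.351), and the summed counts behind this were 17 and 35 UMIs in progenitors and 17 and 44 in HFSCs. Its treated libraries lay above the untreated ones in both cell types, but in HFSCs the closest were 0.3414 and 0.3412 CPM. Ccnd1 was at 0.087 and -0.080, Cdk4 at 0.063 and 0.020 and Cdkn1b at -0.14 and -0.14 in progenitors and HFSCs.

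**Figure D5:**
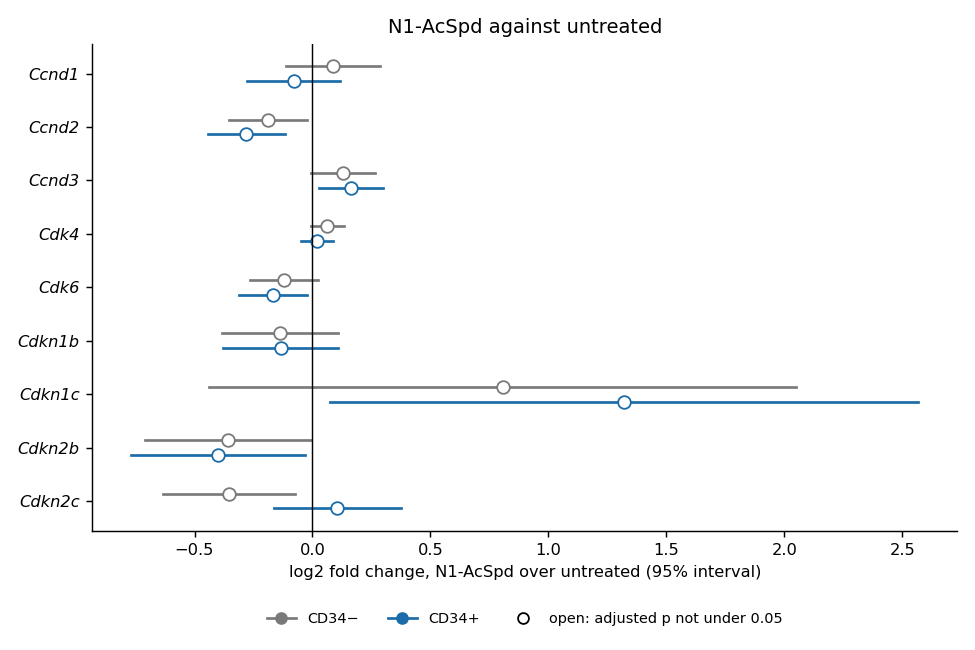
Log2 fold change of N1-AcSpd over untreated (horizontal axis) for the 9 tested members, in α6+/CD34− progenitors (grey) and α6+/CD34+ HFSCs (blue), with 95% intervals of the edgeR fit. All points are open, since no adjusted p was under 0.05, and the interval of Ccnd2 in HFSCs (-0.44 to -0.12) is the farthest from 0 for its width.

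How far N1-AcSpd altered the cell type difference itself, the interaction, was also tested, and it was called for no member and for 0% of all genes (edgeR). At an unadjusted p under 0.05 it held 1 member, Cdkn2c, against 4.19% of all genes, and DESeq2 called no member. The Cdkn2c cell type difference was larger with N1-AcSpd by 0.46 on the log2 scale (SE 0.18, edgeR unadjusted p 0.0235, adjusted p 1), in 4 of 4 mice. Behind it, progenitors went from 2.30 ± 0.483 to 1.80 ± 0.157 CPM with N1-AcSpd (log2 fold change -0.35, edgeR adjusted p 0.246) and HFSCs from 4.55 ± 0.199 to 4.89 ± 0.477 CPM (0.11, adjusted p 0.834). For Cdkn1b the interaction was 0.0024 (95% interval -0.33 to 0.33, edgeR adjusted p 1).

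Around the members, 39 genes of the same pathway were listed in 3 groups, and all were tested. Of 19 further G1/S genes (other inhibitors, cyclin E and A, CDK2 and their regulators), 5 rose and 1 fell in untreated HFSCs, and 6 rose and 1 fell with N1-AcSpd. These 6 and 7 of 19 called genes are near the 32.1% and 33.3% called among all genes, so the counts are no result about the list. The list's median log2 fold change was 0.13 and 0.12, against 0.022 and -0.0068 for all genes. The fourth INK4 gene, Cdkn2d (p19 of the INK4 family), rose with Cdkn2c, from 7.91 ± 1.16 CPM in progenitors to 18.1 ± 1.87 CPM in HFSCs (log2 fold change 1.19, SE 0.12, edgeR adjusted p 6.24e-06). With N1-AcSpd it went from 6.96 ± 0.568 to 20.7 ± 2.99 CPM (1.57, SE 0.12, adjusted p 7.30e-07). Cdkn1a (p21), the CIP/KIP inhibitor induced by p53, fell where Cdkn1b rose, from 101.3 ± 9.30 to 66.6 ± 4.92 CPM without (-0.61, SE 0.081, edgeR adjusted p 7.15e-05) and from 112.7 ± 6.33 to 65.1 ± 6.37 CPM with N1-AcSpd (-0.79, SE 0.081, adjusted p 5.61e-06). Cdkn3, a phosphatase of CDKs expressed in dividing cells, was called with N1-AcSpd (0.74, edgeR adjusted p 0.0101) and not without (0.31, adjusted p 0.270). The difference between the conditions, the interaction, was called for no partner gene.

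Cyclin E and CDK2 act in the next step, at the entry into S phase. Ccne1 (-0.15 and -0.26, edgeR adjusted p 0.625 and 0.329), Ccne2 (0.025 and 0.032, adjusted p 0.872 and 0.858) and Cdk2 (0.14 and 0.29, adjusted p 0.458 and 0.0778) were not called in either condition, but Cdk2 was called with N1-AcSpd under library totals (0.41, edgeR adjusted p 0.0174). It was also called with N1-AcSpd in 2 of 20 refits that left out 1 library or 1 mouse (lowest edgeR adjusted p 0.0342). Ccne2 shares its 3′ end with Ints8 on the opposite strand, with raw counts, which share depth, at an r of 0.978, and Cdk2 overlaps Pmel. Ints8 held 117.8% to 138.3% of the Ccne2 count in each library, and the part of shared tags in the Ccne2 values was not tested.

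Some of the 10 listed genes of the RB family and its DREAM and MuvB partners hold E2F target genes silent in resting cells. The list also holds the mitotic activator Foxm1. Of these 10 genes, 4 rose and none fell in untreated HFSCs, and 5 rose and none fell with N1-AcSpd (median 0.25 and 0.37, against 0.022 and -0.0068 for all genes). Among all genes 16.1% and 16.5% were called higher and 32.1% and 33.3% in either direction, and no test was made of the list against these shares. Rb1 was among them at 0.32 (edgeR adjusted p 0.0342) and 0.31 (adjusted p 0.0368). So were the MuvB subunit Lin52 (0.68, adjusted p 0.0323 and 0.78, adjusted p 0.0152 by edgeR) and the mitotic activator Foxm1 (0.58, adjusted p 0.0498 and 0.93, adjusted p 0.00366 by edgeR). Of 10 E2F and DP genes, 3 rose and 1 fell without and 5 rose and none fell with N1-AcSpd (median 0.083 and 0.16). Some of the 10 encode factors that RB proteins restrain. The same shares of all genes apply, and the 4 of 10 called in untreated cells are near 32.1%. Named by size were the dimerisation partner Tfdp2 (0.56 and 0.58, edgeR adjusted p 0.000378 and 0.000227), the repressor E2f8 (0.46 and 0.60, adjusted p 0.0336 and 0.00732) and the activator E2f2 (0.093 and 0.63, adjusted p 0.808 and 0.0239). Calls of Rb1, Lin52, Foxm1 and E2f8 in untreated cells were close to the threshold and were lost in 9, 9, 15 and 9 of 20 refits that left out 1 library or 1 mouse. All 4 were also lost without a low-count filter, those of Lin52, Foxm1 and E2f8 with only the 8 compared libraries, those of Rb1 and Foxm1 by DESeq2 (adjusted p 0.0589 and 0.0540), and that of Foxm1 with DESeq2 size factors in edgeR. With N1-AcSpd the calls of Rb1, E2f2, Lin52, E2f8, Cdkn3 and Foxm1 were lost in 7, 6, 3, 2, 1 and 1 of 20, and those of Rb1 and E2f2 also without a filter and with only the 8 compared libraries. Rb1 shares its 3′ end with Rcbtb2 on the opposite strand, which held 67.4% to 113.4% of the Rb1 count in each library. Rb1 also overlaps Lpar6 (48.3% to 77.5% of the Rb1 count), and Foxm1 overlaps Tex52 (r 0.972 of raw counts). The part of shared tags in the calls of Rb1 and Foxm1 was not tested. Rbbp4 also rose in both conditions (0.37 and 0.43, edgeR adjusted p 1.22e-05 and 3.425e-06). It overlaps Gm26722 on the opposite strand, with raw counts, which share depth, at an r of 0.999. The part of shared tags in the Rbbp4 calls was not tested. No partner gene was called in either treatment comparison or in the interaction.

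Wider groups that moved with the cell type difference are given as values beside it. All 14 proliferation genes listed, including Mki67, Pcna and the MCM helicase, were called higher in HFSCs in both conditions (median log2 fold change 0.42 and 0.64). Among all genes 16.1% and 16.5% were called higher. Ccnb1 was close to the threshold in untreated cells (edgeR adjusted p 0.04755). The summed level of the 14 genes was 446.3 ± 21.0 CPM in untreated progenitors, 615.2 ± 49.2 CPM in untreated HFSCs, 444.0 ± 32.4 CPM in N1-AcSpd progenitors and 695.1 ± 45.9 CPM in N1-AcSpd HFSCs. All 13 epidermal differentiation genes were called lower in both conditions, against 16.1% and 16.8% of all genes. Their summed level fell from 1302 ± 190.2 to 341.2 ± 14.9 CPM without and from 1515 ± 196.2 to 400.2 ± 42.2 CPM with N1-AcSpd. Of 7 HFSC genes listed, which include Cd34, the transcript of the gate, 5 were called higher and none lower in both conditions. Tcf7l1 and Lgr5 were not called. The median log2 fold change of this list was 1.22 and 1.52. Its summed level was 89.5 ± 4.25 CPM in untreated progenitors and 540.8 ± 71.8 CPM in untreated HFSCs. With N1-AcSpd it was 72.25 ± 6.15 and 442.2 ± 82.2 CPM. The part of these lists in the member values was not tested. The fibroblast list, mostly Vim, summed to 2.84 to 12.0 CPM in untreated progenitors and 0.873 to 2.80 CPM in untreated HFSCs, and its part was not tested either.

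Genes whose level followed a member most closely over the 16 libraries were named by the Pearson r of log2(CPM + 1) among 9380 genes averaging 50 or more counts, leaving out other members, genes that overlap the member and unnamed gene models. The overlapping LTO1 (0.989 with Ccnd1) and Gm43126 (0.965 with Ccnd2) lay above the genes named here for these members. These r values describe libraries that fall into 4 groups and share their scaling, and no test was made. Ccnd1 was closest to Plk2 (r 0.979) and S100a11 (0.961), and Cdk6 to Sh3kbp1 (0.9751) and Cldn1 (0.971), all with lower mean levels in HFSCs. Cdkn1b was closest to Ucp2 (0.9751) and Rab15 (0.9749) and Cdkn2c to Ptn (0.978) and Barx2 (0.976), all with higher mean levels in HFSCs, as had Hdac3 (0.969) and Gmnn (0.957) beside Cdk4. Cdkn2b went with Flrt2 (0.946) and Fam3c (0.940), and Ccnd3 with Paip2 and Slc23a1 (both 0.993), which overlap each other on opposite strands. Among the genes so chosen the weakest match was that of Ccnd2, with Tcp11l1 (0.908) and Rpl35a (0.899), which fell to 0.838 and 0.671 with library totals in place of TMM. Mean levels were 48.7, 31.6, 38.6 and 23.6 CPM for Tcp11l1 in untreated progenitors, untreated HFSCs, N1-AcSpd progenitors and N1-AcSpd HFSCs.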

How the data were processed

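RNA from sorted HFSC organoid cells was sequenced at its 3′ end. Per the study's methods and the submitters' processing notes, the authors demultiplexed reads with FLEXBAR, aligned them to mm10 with Kallisto (0.45.0), assigned tags with BEDTools and used R to count the distinct UMIs of each gene. The annotation release and the use of strand are not given in the sources used here. The deposited values were these raw counts for 32989 genes, without normalization, and 156050 empty cells were read as 0. Identifiers without a symbol (94) held 0.125% of counts. Library totals ran from 15480075 to 29074855 UMIs. Limits at 0 counts (3 counts) and CPM of low genes carry counting error only.

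Symbols and positions came from GENCODE vM21 (GRCm38). Testing covered the 19049 genes averaging 5 or more counts, in edgeR 4.0.16 (R 4.3.3), with TMM scaling and quasi-likelihood tests in 1 fit of 16 libraries with 4 group means. Benjamini-Hochberg adjusted p-values over all tested genes were called under 0.05, and all tests were two-sided. Standard errors are the log2 fold change over the square root of F, and 95% intervals use the degrees of freedom of the fit. CPM values are given as mean ± SD over n = 4. CPM were computed on TMM-scaled totals. The procedure was tested on simulated data. The simulated counts held no mouse effect and no tags shared between genes, so that run does not bear on either.

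The labels gave the groups and the replicate numbers, and each of the 4 numbers stands for 1 mouse in all 4 groups, so the numbers pair the libraries. Deviations of same-mouse libraries from their group means had a mean r of 0.034 (-0.12 to 0.16, 24 pairs). The replicates are separate mice. No pair of libraries within a group held the same counts within sampling noise (chi-square per degree of freedom at least 27.9).

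Members and lists were chosen with earlier results of these data known. The text names all 10 members, partner genes called with an absolute log2 fold change of at least 0.5 between cell types or called in any treatment comparison, 6 fixed partner genes (Cdkn1a, Cdkn2d, Ccne1, Ccne2, Cdk2 and Rb1) and the 2 genes closest to each member averaging 50 or more counts, other members, genes overlapping the member and unnamed models left out. Rbbp4 is named for its overlap with another gene. Each result was recomputed with library totals or DESeq2 size factors for scaling, with no filter or filterByExpr, with a block for mouse, with only the 8 compared libraries, with DESeq2 1.42.0, without each library or mouse, and, chosen after seeing the data, with subtraction of the overlapping gene's count. Motifs were searched in RefSeq promoter windows (GRCm38.p6), 250 bases before the start.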

Additional observations from a re-analysis of the deposited data

Results flagged for a closer look

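Cdkn2c in N1-AcSpd HFSCs stood out in mouse 1, at 5.605 CPM against 4.608, 4.661 and 4.696 CPM in mice 2 to 4, a gap to the nearest library that was large for the range of the group. This was 1 of 36 groups of 4 values examined, and chance flags about 1 in 20. The library is the deepest of its group, with 26233887 UMIs, and the part of depth in this value was not tested. Without this library the N1-AcSpd cell type difference of Cdkn2c stayed called.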

How the results depend on the processing

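Over leave-out refits, 7 to 8 members were called between cell types in untreated cells and 8 with N1-AcSpd. With mouse as a block, no member gained or lost a call in any comparison, while genes called in the treatment comparisons went from 117 to 349 in progenitors and from 62 to 152 in HFSCs. Without a low-count filter these counts were 35 and 35, with only the 8 compared libraries 0 (edgeR, 2645 at an unadjusted p under 0.05) and 23, with DESeq2 558 and 423, and over leave-outs 4 to 157 and 3 to 73. DESeq2 called 1 member (Ccnd2) in treated HFSCs and 72 genes in the interaction, for which leave-outs gave 0 to 11. Partner genes called between cell types went from 14 to 9 without a filter and to 6 to 14 over leave-outs in untreated cells, and to 10 to 18 with N1-AcSpd. All sign changes were in values that were never called. After subtraction of the overlapping gene Ccnd1 was at 0.085 for the treatment in HFSCs and 0.034 for the interaction, and Cdk4 at 0.020 for the interaction, and with the block Cdkn1b was at -0.0094. Over leave-outs the cell type effect ranged from -0.11 to 0.66 for Cdkn1c, -0.33 to 0.12 for Ccne1, -0.0065 to 0.077 for Ccne2 and -0.00060 to 0.18 for E2f2 in untreated cells, and -0.011 to 0.092 for Ccne2 with N1-AcSpd. The treatment effect ranged from -0.20 to 0.0061 for Cdkn1b in progenitors and -0.0051 to 0.049 for Cdk4 in HFSCs. The interaction ranged from -0.0094 to 0.11 for Ccnd3, -0.11 to 0.013 for Cdk6, -0.19 to 0.17 for Cdkn1b, -0.020 to 0.88 for Cdkn1c and -0.18 to 0.17 for Cdkn2b. The cause of these changes was not tested. Depth limits Cdkn1c and Cdkn2a, whose counts a library did not exceed 14 and 3.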
